A study of Mus musculus with 46 samples.

Results

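The nuclear genes of oxidative phosphorylation were taken by symbol from the deposited expression table, as every row that names an Nduf subunit, an Sdh subunit, a Uqcr gene, a Cox4 to Cox8 gene or an Atp5 gene. This rule gave 86 of 29871 genes, and it used no expression value. By complex, 35 belong to complex I, 4 to complex II, 9 to complex III, 20 to complex IV and 16 to complex V (ATP synthase). Ndufa4 and its paralog Ndufa4l2 were counted with complex IV, where the Ndufa4 protein is found. The 2 left over are Atp5s and Atp5sl, whose products are not subunits of the core enzymes. The pseudogenes Uqcrh-ps1 and Atp5c1-ps came in through their symbols, while the subunit genes Cyc1 and Ndufab1 fall outside the rule.

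Oxidative phosphorylation runs in the inner mitochondrial membrane. Complexes I and II take electrons from NADH and succinate, complex III passes them by cytochrome c to complex IV, which reduces oxygen, and ATP synthase uses the proton gradient that complexes I, III and IV build. A small set of core subunits is encoded in the mitochondrion and all others in the nucleus, so the nuclear genes measured here supply most of the parts list. Several complex IV subunits exist as a ubiquitous form and a form of heart and muscle, lung or testis. In the cochlear lateral wall, fibrocytes recycle potassium at a high energy cost and osteoblasts build the bony capsule.

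The cells came from the cochlea of C57BL/6 mice at postnatal day 10. The mice, labelled as heterozygous, had a tamoxifen-inducible Cre at the type 2 deiodinase gene and the Ai6 reporter (Dio2creERt2:Ai6), whose green fluorescent protein marks cells in which Cre has acted and the descendants of these cells. All 46 cells have this genotype, and none come from a control genotype. Fluorescent cells were picked by hand after papain treatment, so the sample describes picked cells and not the tissue.

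All cells are in 1 labelled group, and the animal of origin is named for none. The 46 cells were therefore treated as 1 sample, and no test between cells was made. Each spread given below is a standard deviation (SD) over cells, and differences are described by size only. The cells were placed in classes by the level of 3 marker genes in CPM (reads per 1000000 reads of the cell). Ibsp (bone sialoprotein) at 1000 CPM or more marked 12 cells, Otos (otospiralin, a fibrocyte protein) at 1000 CPM or more marked 9, and C1qb (a complement subunit made by macrophages) at 500 CPM or more marked 4. The remaining 21 cells passed none of the limits, and 0 cells passed 2. The nearest values inside and outside the limits were 7618 and 107 CPM for Ibsp, 1213 and 112 CPM for Otos, and 3048 and 148 CPM for C1qb.

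Other markers went with these classes. Of 7 osteoblast markers, 7 had a median of at least 10 CPM in the Ibsp-high cells, 0 in the Otos-high cells and 1 in the C1qb-high cells. All 7 fibrocyte markers did so in the Otos-high cells, 5 in the Ibsp-high, 3 in the C1qb-high and 5 in the remaining cells. All 7 macrophage markers did so in the C1qb-high cells and 0 in any other class. The 5 chondrocyte markers were high across classes. Their summed CPM had medians of 7691, 9210 and 7211 in the Ibsp-high, Otos-high and remaining cells, and 23.9 in the C1qb-high cells. Of these markers 2, 3, 3 and 1 had a median of at least 10 CPM in these classes, in the same order. Markers of some further cell types were high in single cells. Macrophage markers summed to 476 CPM in 1 Ibsp-high cell, melanocyte markers to 2096 CPM in 1 Otos-high cell, and neuron and glia markers to 1084 CPM in 1 C1qb-high and 787 CPM in 1 Otos-high cell. Their part in the results was not tested. Each cell held 2522853 to 10350249 reads in the listed genes (median 4789573). Cells 1 to 12 are the Ibsp-high cells and cells 43 to 46 the C1qb-high cells, so the number in the label and the class go together. What the number stands for is not stated.

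Together the nuclear oxidative phosphorylation genes took between 0.340% and 1.13% of all reads of a cell, with a median of 0.667% (n = 46). In the Ibsp-high cells the share ran from 0.473% to 1.09% with a median of 0.727%, and in the Otos-high cells from 0.483% to 1.13% with a median of 0.739%. The remaining cells ran from 0.507% to 1.09% with a median of 0.645%. These ranges cover each other almost fully. On the log2 scale the median of the Ibsp-high cells lay 0.17 and that of the Otos-high cells 0.20 above the remaining cells, and the Ibsp-high cells lay slightly below the Otos-high cells (log2 ratio -0.023, and 0.042 to 0.17 under the other scalings described below). All 3 differences are smaller than the pooled SD over cells, which was 0.36, 0.36 and 0.38 log2 units. By the summed share, the Ibsp-high, Otos-high and remaining cells overlapped.

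**Figure D1:**
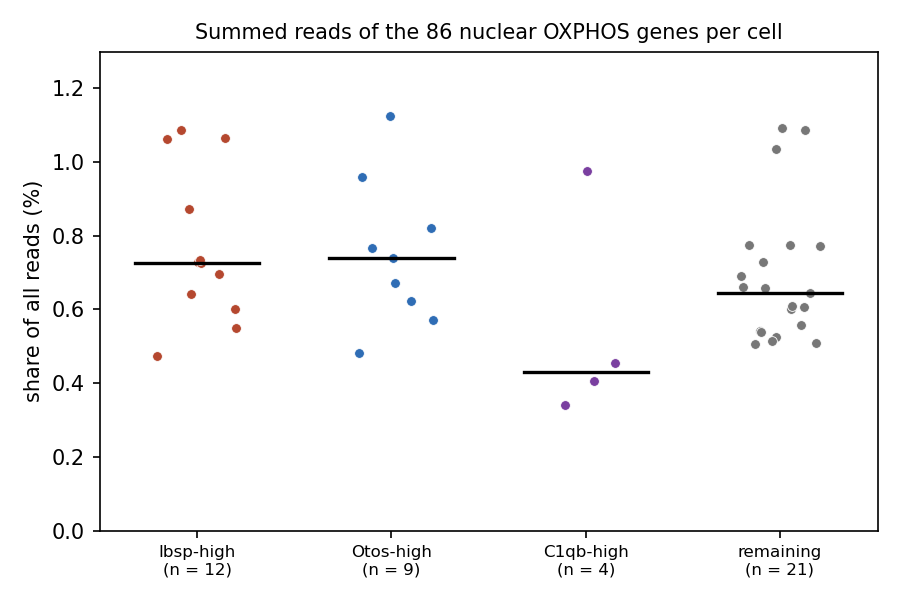
Summed reads of the 86 genes as a percentage of all reads (y axis), 1 point per cell by class, with a line at the class median. The medians are 0.727%, 0.739%, 0.431% and 0.645% from left to right, and only 1 of the 4 C1qb-high cells, at 0.975%, lies above the median of the remaining cells.

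The C1qb-high cells stood apart on the CPM scale but not on every scale. Their shares were 0.407%, 0.340%, 0.455% and 0.975% in cells 43, 44, 45 and 46, with a median of 0.431%. They hold the 3 lowest of the 46 shares (the next is 0.473%), while cell 46 lies inside the upper range of the other classes. The log2 ratio of medians to the remaining cells was -0.58, against a pooled SD of 0.41. The direction turned to 0.44 when cells were scaled by median-ratio size factors over the 1086 other genes with a read in every cell. It was -0.069 with such factors over the 130 genes at 10 CPM or more in every cell, and -0.32 over the 79 genes at 30 CPM or more, 2 settings added after seeing the data. Ribosomal protein genes gave a further reference. Their reads were 0.408 times those of the oxidative phosphorylation genes in the C1qb-high cells (median; 0.372 to 0.473), against 0.597 (0.329 to 0.779) in the remaining cells. Differences of the C1qb-high cells are therefore given below in CPM and, for the genes named, with their range over the 4 scalings.

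Within the members, ATP synthase and complex I took most of the reads. Complex V took a median of 34.5% of a cell's member reads (19.9% to 48.5%), complex I 28.8% (17.3% to 38.7%), complex IV 14.2% (7.10% to 23.96%), complex III 12.1% (4.86% to 17.7%) and complex II 8.73% (3.14% to 22.6%). Complex II was the most variable of these relative to its size, with an SD of 4.35 percentage points around a mean of 9.75%. The division between complexes overlapped in all classes. Complex IV took a mean of 15.99% ± 3.58 in the Otos-high and 15.8% ± 2.49 in the C1qb-high cells, against 13.04% ± 2.66 in the remaining cells. In the C1qb-high cells complex I took 23.6%, 27.8%, 18.3% and 22.97% in cells 44, 43, 45 and 46, against a median of 28.5% in the remaining cells (17.3% to 37.6%). These 4 values lie inside the range of the remaining cells, and each of these gaps is about 1 SD over cells. This share is a ratio within each cell, so the scaling of the cells does not touch it.

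**Figure D2:**
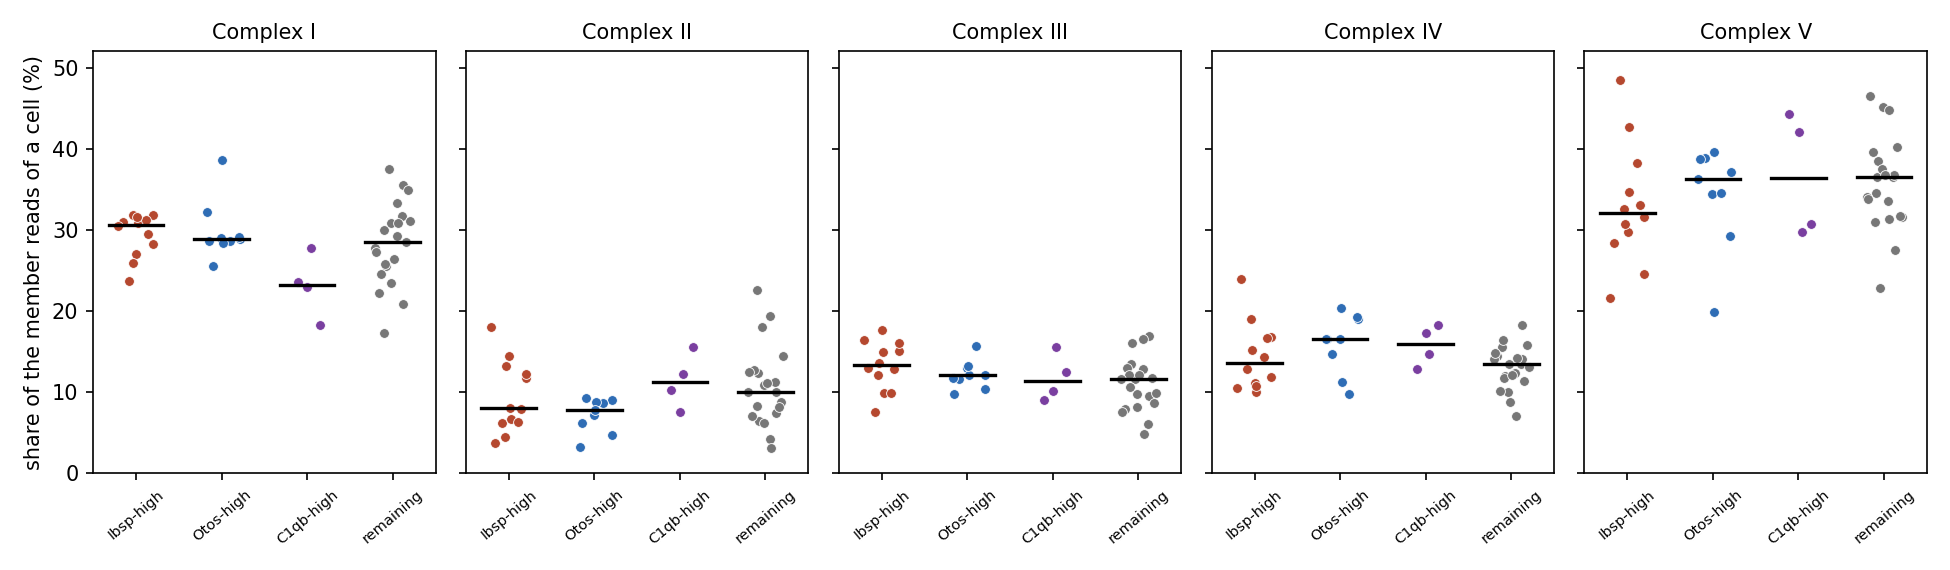
Share of a cell's member reads that fell to each complex (y axis, percent), 1 point per cell by class, with a line at the class median. Complex I has class medians of 30.6%, 28.9%, 23.3% and 28.5% from left to right, and the classes overlap in every panel.

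A few genes carried much of the total. The 3 with the highest mean, Atp5b, Atp5a1 and Uqcrc1, held 22.6% of the summed mean CPM of the members and the top 10 held 42.3%. Atp5b encodes the catalytic beta subunit of ATP synthase. It had at least 1 CPM in 46 of 46 cells, with 49.3 CPM in the lowest, 805 CPM in the median and 2034 CPM in the highest cell. Atp5a1 (the alpha subunit) had a mean of 537 ± 350 CPM (SD, n = 46), and Uqcrc1, a core subunit of complex III, 304 ± 188 CPM. Per kilobase of transcript, which allows genes to be ranked, the mean level was highest for Atp5b (398 CPM per kb) and Cox4i1 (352), followed by Atp5g3 (260), Atp5j (256), Cox6a1 (248.9) and Atp5d (229). Neighbours in this order differ by less than the spread over cells, since the coefficient of variation (CV) of these genes lay between 0.505 and 0.655. In complex II, Sdhd stood at 133 CPM per kb, Sdhb at 84.7, Sdha at 81.8 and Sdhc at 49.4.

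The members were read in more cells than the typical gene. Averaged over the 46 cells, 82 of the 86 reached 1 CPM. Their median gene was at 1 CPM or more in 43.5 of 46 cells and had a CV of 0.702, while the median of all 14131 genes with such an average was at this level in 13 cells and had a CV of 2.29. Among genes that averaged 50 CPM or more the figures were 45 cells and 0.653 for 52 members against 30 cells and 1.32 for 4047 genes. A cell had a median of 70.5 members at 1 CPM or more (60 to 78). By class the median was 73.5 in Ibsp-high, 74 in Otos-high, 65.5 in C1qb-high and 70 in the remaining cells. In all, 18 members reached 1 CPM in all 46 cells, of which 8 were genes of complex IV, 7 of complex V, 2 of complex III and 1 of complex I.

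Among members of higher level, longer transcripts were found in fewer cells. Of the 19 members with a mean of at least 50 CPM and a transcript of 1000 nt or more, 8 were found in fewer than 40 cells, against 1 of 33 shorter ones. Spearman's rho between transcript length and the number of cells was -0.44 across these 52 genes, and -0.21 across the 81 members that averaged 1 CPM or more and have a length. The genes are not independent replicates. Ndufs1, the large iron-sulfur subunit of complex I with a transcript of 2590 nt, reached 1 CPM in 28 cells. The part of length in the scatter of such genes between cells was not tested.

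Sequence features were looked for in the promoters. NRF1, GABPA and YY1 are transcription factors known for binding upstream of respiratory chain genes. RefSeq promoter windows on GRCm38.p6, 250 bases before to 50 after the start, were matched by gene identifier for 69 of the 86 members. The NRF1 motif, GCGCA and GCGC with any 1 base between them, on either strand, lay in 17 of these 69 (24.6%) and in 1402 of 27025 genes (5.19%). AANATGGCG, the YY1 motif, lay in 11 (15.9%) against 2.76% of all genes, and the GABPA motif CCGGAAGT in 5 (7.25%) against 4.31%. In Atp5b, Ndufc1, Atp5j2, Ndufs7, Ndufa9, Ndufs6 and Ndufs4 the YY1 match lay only after the start, beginning at positions 17 to 36. Some matches of the other 2 motifs also lay after the start. At least 1 of the motifs was present in 31 members (44.9%) and in 11.2% of all genes. The 27025 genes were not limited to genes read in these cells. A background of widely read genes was not computed. By complex, the NRF1 motif was held by 7 of 31 windows of complex I, 2 of 3 of complex II, 1 of 5 of complex III, 1 of 14 of complex IV and 6 of 14 of complex V. A match describes the letters of the window and says nothing about binding.

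The matches before the RefSeq start of 8 members are shown. Of these genes 7 are among the largest class differences described below. Cox6a1 is the sole gene with an NRF1 match among the 14 complex IV genes that have a window. The RefSeq start can differ from the GENCODE gene positions given below. By those positions the windows of Atp5g2, Atp5j and Ndufa8 and the last of Sdha lie inside the gene. Each window is 30 bases on the strand of the gene, with the match in capitals.
Atp5g2 (NRF1, chr15:102671070-102671099, minus strand): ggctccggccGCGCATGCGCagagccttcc
Sdha (NRF1, chr13:74350319-74350348, minus strand): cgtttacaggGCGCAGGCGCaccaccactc
Sdha (NRF1, chr13:74350276-74350305, minus strand): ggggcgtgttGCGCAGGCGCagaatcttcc
Sdha (NRF1, chr13:74350231-74350260, minus strand): gcgactcggtGCGCAAGCGCagtctgtcgc
Sdhd (NRF1, chr9:50603909-50603938, minus strand): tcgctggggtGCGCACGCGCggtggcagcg
Ndufa8 (NRF1, chr2:36049349-36049378, minus strand): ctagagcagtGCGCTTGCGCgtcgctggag
Ndufa11 (NRF1, chr17:56717692-56717721, plus strand): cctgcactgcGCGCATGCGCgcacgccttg
Cox6a1 (NRF1, chr5:115349101-115349130, minus strand): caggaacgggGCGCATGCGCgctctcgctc
Cox6a1 (NRF1, chr5:115349056-115349085, minus strand): cggataaagtGCGCAGGCGCtggagttcct
Atp5j (YY1, chr16:84835045-84835074, minus strand): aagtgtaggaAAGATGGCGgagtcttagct
Ndufb11 (YY1, chrX:20617811-20617840, minus strand): tcaccaacacAAAATGGCGacgagaagaga
Sdha holds 3 matches, at -98, -55 and -10 from the RefSeq start. Among the printed genes with an NRF1 match, Atp5g2 was higher and Sdha lower in the Ibsp-high cells, as described below. Most of the printed genes were picked for their class differences, and a link between motif and level was not tested.

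Class differences of single genes were read on the log2(CPM + 1) scale. A member counts as higher or lower when the class means of log2(CPM + 1) differ by at least 1. This scale understates differences of low genes and gives much weight to cells without reads. The 3 comparisons with the remaining cells share those cells.

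In the Ibsp-high cells, 13 of 82 members were higher and 3 lower than in the remaining cells. That is 19.5% called in either direction, against a background of 31.1% of all genes (17.7% higher and 13.4% lower). The median difference of the members was 0.39, against 0.01 for all genes, and 59 of 82 lay above 0. With the 1086-gene size factors 17 were higher and 1 lower, against 18.4% and 12.5% of all genes. Under each of the 4 scalings 13 and 1 were called, a count that was not made over all genes. The higher group holds core subunits of complex I (Ndufs1, Ndufs8, Ndufv1), the accessory subunit Ndufa9, the membrane anchor Sdhc of complex II, Cox7b of complex IV, and Atp5c1 and Atp5g2 of ATP synthase.

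Atp5g2 had the largest difference. It is 1 of 3 genes for the same mature c subunit, the protein of the proton-driven ring of ATP synthase, and lies at chr15:102662864-102672352 on GRCm38. Its lowest, median and highest values were 0, 54.6 and 168 CPM in the Ibsp-high cells, 0, 19.7 and 51.9 CPM in the Otos-high cells and 0, 16.7 and 135 CPM in the remaining cells. In the C1qb-high cells they were 0.194, 12.6 and 152 CPM. It reached 10 CPM in 11 of 12 Ibsp-high cells, 6 of 9 Otos-high, 2 of 4 C1qb-high and 11 of 21 remaining cells. The classes overlap in range. Against the remaining cells the Ibsp-high cells differed in how many had the gene and in its median, and against the Otos-high cells mainly in its level. The difference was 2.13 to the remaining and 2.03 to the Otos-high cells, with pooled SDs over cells of 2.56 and 2.02. Leaving out single cells moved it to no less than 1.96 (without cell 18) and 1.59 (without cell 24). Pseudogene copies of Atp5g2 with near-identical coding sequence exist in the genome, so its count may be split with them.

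**Figure D3:**
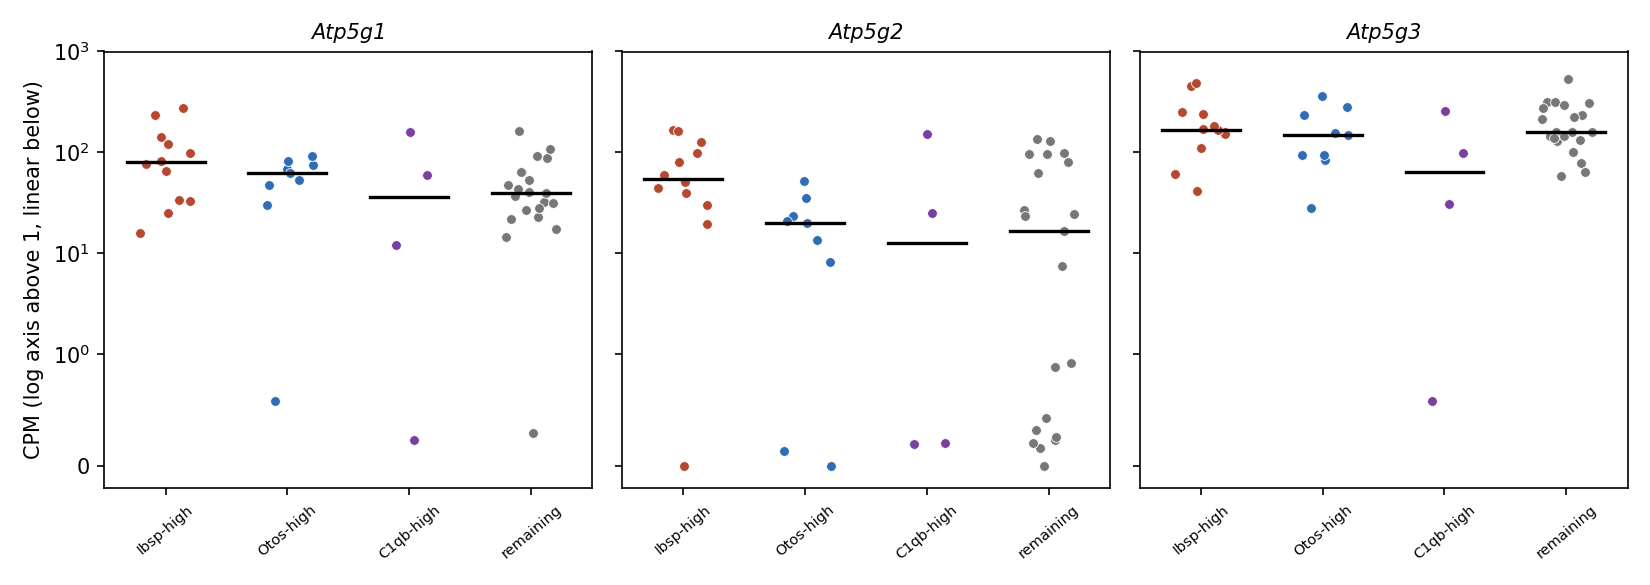
CPM of the 3 genes of the ATP synthase c subunit (y axis, logarithmic above 1 CPM and linear below), 1 point per cell by class, with a line at the class median. Atp5g2 reached 10 CPM in 11 of 12 Ibsp-high cells and in 11 of 21 remaining cells, while Atp5g3 did so in 45 of all 46 cells.

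The other 2 c-subunit genes were more even. Per kilobase, Atp5g3 supplied a mean of 56.7% ± 18.4 (SD, n = 46) of the c-subunit signal of a cell, Atp5g1 25.04% ± 16.2 and Atp5g2 18.2% ± 16.6. In the Ibsp-high cells the mean shares were 47.7% ± 15.3, 26% ± 12.8 and 26.3% ± 14.5 (n = 12). The C1qb-high cells had 35.5% ± 22.9, 40.97% ± 39.4 and 23.6% ± 27.3 (n = 4). For the Otos-high cells they were 59.3% ± 13.8, 25.7% ± 12.7 and 15.01% ± 17.5 (n = 9), and for the remaining cells 64.8% ± 16.4, 21.2% ± 11.6 and 14% ± 14.4 (n = 21). Against the remaining cells, the Atp5g3 share of the Ibsp-high cells was lower by slightly more than the SD over cells and the Atp5g2 share higher by slightly less.

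Complex II genes differed in both directions in the Ibsp-high cells, though the lower calls were unstable. Sdhc, a membrane anchor subunit with 108, 215 and 312 CPM as lowest, median and highest values, was higher than in the remaining cells (0.162, 125 and 459 CPM) by 1.33 (pooled SD 1.85). Sdha, the flavoprotein that oxidises succinate, had 2.58, 177 and 347 CPM against 4.99, 273 and 724 CPM, a difference of -1.04 (pooled SD 1.61) that shrank to -0.58 without cell 8. Sdhd, the other anchor, had 0, 109 and 506 CPM against 0, 174 and 403 CPM, a difference of -1.01 (pooled SD 3.37) and -0.57 without cell 8. Over the 3 sets of size factors Sdha lay between -1.02 and -0.95 and Sdhd between -0.97 and -0.95, about as large but partly under the size, whereas Sdhc and the other higher genes did under each scaling. Sdhb, the iron-sulfur subunit, had medians of 95.1 and 76.2 CPM and a difference of 0.64. Leaving out any 1 of 9 cells ended the call of Sdha, and any 1 of 20 cells that of Sdhd. Mean CPM in the Ibsp-high and remaining cells was 184 and 312 for Sdha and 155 and 167 for Sdhd. So by sign the 4 subunits of the smallest complex, which are needed together, did not differ in 1 direction. For Sdha and Sdhd this rests on weak calls.

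Among the complex I genes of this group, Ndufa9 differed by 1.65 (59.2 CPM median against 0.915), Ndufs1 by 1.59 (122 against 1.92), Ndufs8 by 1.46 (84.7 against 63.8) and Ndufv1 by 1.29 (170 against 103), with pooled SDs of 3.07, 3.21, 1.94 and 2.92. Their highest remaining cells reached 290, 183, 221 and 766 CPM, above the highest Ibsp-high cell in each case. The classes differed in how many cells had Ndufs1, which reached 10 CPM in 8 of 12 Ibsp-high and 9 of 21 remaining cells. Exons of Ndufs1 and Ndufa9 overlap antisense genes, and reads of such partners cannot be told apart where strand is not known.

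In the Otos-high cells, 12 of 82 members were higher and 3 lower than in the remaining cells, 18.3% against a background of 30% (15.3% higher and 14.8% lower). The median difference was 0.45, against -0.05 for all genes, and 66 of 82 lay above 0. Under each of the 4 scalings 8 were higher and 3 lower, again a count without a background. Complex I held 10 of the 12 higher genes, out of 34 measured, and complex III the other two. In complex IV 17 of 17 genes lay above 0 and 0 were called, with a median of 0.50. The higher genes of complex I include Ndufv1 (1.597), Ndufv2 (1.55), Ndufs1 (1.53), Ndufa9 (1.95), Ndufs5 (1.22) and Ndufb5 (1.205). Those of complex III are Uqcrc2 (1.82) and Uqcr11 (1.23). Ndufv1, Ndufs1, Ndufa9 and Uqcrc2 were also higher in the Ibsp-high cells, and Ndufa9 in the C1qb-high cells. Ndufs5, Ndufb5 and Uqcr11 had 0.83, 0.9986 and 0.97 when cell 24, 38 or 20 was left out.

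Ndufv2 had 48.7, 125 and 303 CPM in the Otos-high cells and 0, 66.4 and 198 CPM in the remaining cells (pooled SD of the difference 1.87). Ndufv1 had 54.6, 118 and 276 CPM against 0.162, 103 and 766 CPM, and reached 10 CPM in 9 of 9 and 15 of 21 cells. Its medians are close, and 6 remaining cells were under 10 CPM. Computed from mean CPM instead, the log2 ratio of Ndufv1 was -0.039, that of Ndufa9 -0.12 and, in the Ibsp-high cells, that of Uqcrc2 -0.025, so for these genes the direction holds for how many cells have reads and not for the mean level.

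Sdha was lower in the Otos-high cells, with 0.949, 122 and 418 CPM as lowest, median and highest values against 4.99, 273 and 724 CPM. The difference was -1.996 (pooled SD 1.92), and -1.38 without cell 32. Atp5sl, which encodes a factor for complex I assembly, was lower in the Ibsp-high and the Otos-high cells, by 2.57 and 2.38 on the log2 scale (differences of -2.57 and -2.38). It reached 10 CPM in 1 of 12 Ibsp-high, 1 of 9 Otos-high, 1 of 4 C1qb-high and 9 of 21 remaining cells. Ndufs7, which carries the last iron-sulfur cluster of complex I, had medians of 44.6 and 73.5 CPM and a difference of -1.01, which was -0.42 without cell 32.

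Set against each other, the Ibsp-high and Otos-high cells differed in few members. By the size rule 2 were higher and 3 lower in the Ibsp-high cells, 6.10% of 82 against a background of 38.6% (21.7% higher and 16.9% lower). The median difference was -0.17, against 0.05 for all genes. With the 1086-gene size factors the split was 3 and 2, against 22.1% and 16.4% of all genes. Besides Atp5g2, the higher gene was Sdhc (1.83, pooled SD 1.99, and 1.18 without cell 24). The lower genes were Sdhd (-1.63, pooled SD 3.20), the muscle-type isoform Cox7a1 (-1.36, and -0.95 without cell 23) and Atp5j (-1.06, and -0.91 without cell 25), which encodes a stalk subunit of ATP synthase. Leaving out 1 of 10 cells raised the count of 5 to between 8 and 11.

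**Figure D4:**
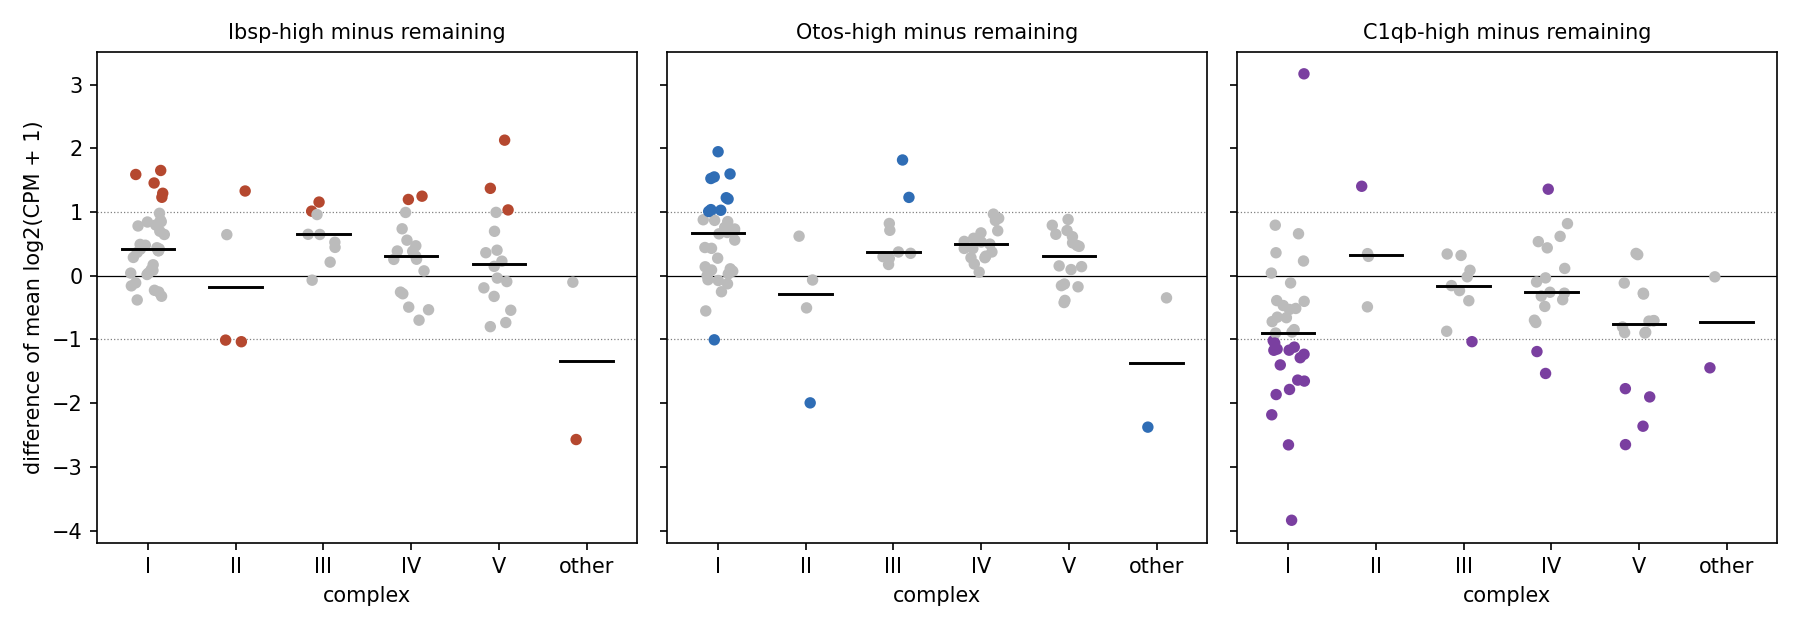
Difference of class means of log2(CPM + 1) (y axis) for the 82 members that averaged 1 CPM or more, by complex, with coloured points for differences of at least 1 and a line at the median of each complex. Complex I medians are 0.42, 0.67 and -0.89 from left to right. The right panel uses CPM, and with 1086-gene size factors its member median is 0.24.

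In the C1qb-high cells 24 of 82 members were lower and 3 higher than in the remaining cells on the CPM scale, 32.9% against a background of 50.4% (23.4% higher and 27% lower). The median difference was -0.52, against -0.29 for all genes. With the 1086-gene size factors 8 were lower and 18 higher, with medians of 0.24 for members and -0.044 for all genes. Under those factors 21.99% of all genes were lower and 30.4% higher, so both counts of members lie under the background. The 10 CPM and 30 CPM gene sets gave 16 lower and 5 higher, and 17 lower and 4 higher, with 24.9% and 25.9% of all genes lower and 26.2% and 24.9% higher. Under each of the 4 scalings 8 members were lower and 3 higher, a count that was not made over all genes. Of these, Ndufv3, Ndufb11, Ndufa3, Ndufa11, Atp5d and Atp5g3 are the lower and Ndufa9, Sdhd and Cox5a the higher genes described next, and Atp5e and Atp5sl are the other two. This class holds 4 cells, so a single cell weighs heavily.

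Ndufv3 differed most. It encodes a small accessory subunit of the NADH-binding arm of complex I and lies at chr17:31520115-31531331. In cells 43 to 46 it had 0, 7.75, 5.86 and 0.216 CPM, and the remaining cells had 8.77, 31.9 and 226 CPM as lowest, median and highest values. In CPM it was the 1 member in these comparisons whose groups did not overlap. How many of all genes were apart in this way was not counted, so this count has no background. With each of the 3 sets of size factors the groups overlapped and 0 members were apart. It was lower by 3.84 on the log2 scale (difference -3.84, pooled SD 1.45; from -3.28 to -3.84 over the scalings). Of the Ibsp-high cells some were as low, with a minimum of 0.231 CPM. The Otos-high cells had at least 37.2 CPM.

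Other lower genes were Ndufb11 (-2.66), a membrane-arm subunit, with 16.5, 0.194, 7.27 and 62.9 CPM in cells 43 to 46, and Ndufa3 (-2.18) with 0.698, 6.78, 18.2 and 50.1 CPM. Their remaining cells had medians of 64.4 and 54.8 CPM. Ndufa11 (-1.79) had 41.4, 10.1, 0 and 35.9 CPM, and the difference was -0.61 without cell 45. Among ATP synthase genes, Atp5d, the delta subunit of the rotor, had 52.6, 29.3, 1.01 and 364 CPM against a median of 212 CPM (difference -2.65). Atp5g3 had 30.95, 0.581, 97.8 and 256 CPM against a median of 157 CPM (-2.36, and -0.89 without cell 44). With the 1086-gene size factors the differences of Ndufb11, Ndufa3, Ndufa11, Atp5d and Atp5g3 were -1.94, -1.38, -1.04, -1.77 and -1.56, and the other scalings lay between these and the CPM values. Atp5j and Ndufa8 were lower by -1.90 and -1.87 in CPM and by -0.95 and -0.98, just under the size, with those factors, and were called under the other 2 sets (-1.52 and -1.69 for Atp5j, -1.45 and -1.62 for Ndufa8). For Ndufa8 the CPM difference was -0.79 without cell 46.

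Not all parts were low. Ndufa9, an accessory subunit at the junction of the complex I arms, had 121, 84.3, 90.5 and 51.2 CPM in the 4 C1qb-high cells, while 11 of the 21 remaining cells were under 1 CPM (median 0.915, highest 290 CPM). The difference was 3.17 (pooled SD 3.14), and 2.99 without cell 43. Sdhd had 205, 51.9, 187 and 298 CPM (difference 1.404) and Cox5a, a subunit on the matrix side of complex IV, 65.6, 81.4, 102 and 181 CPM (1.36) against a median of 63.3 CPM. Over the 4 scalings these 3 differences ran from 3.17 to 4.07, from 1.404 to 2.35 and from 1.36 to 2.32. Atp5b, with 547, 346, 493 and 1677 CPM, differed by -0.11 in CPM and by 0.105 to 0.85 over the sets of size factors. Ndufa9, Sdhd and Cox5a were each above 50 CPM in all 4 cells, while each of the 6 lower genes was under 2 CPM in at least 1 of them.

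The isoform pairs of complex IV were set almost wholly to the ubiquitous form. Per kilobase, Cox4i1 made up 99.2% ± 3.83 of the subunit 4 signal (SD over 46 cells), Cox6a1 100% of subunit 6a, Cox6b1 97.4% ± 8.19 of subunit 6b and Cox8a 98.7% ± 4.93 of subunit 8. Ndufa4 made up 97.7% ± 8.46 against Ndufa4l2. Cox6a2 (heart and muscle), Cox7b2 and Cox8c (testis) were listed at 0 in all 46 cells. The subunit 7a family, counted here with Cox7a2l, was the most mixed, and Cox7a2l rather than Cox7a1 made up most of the part outside Cox7a2. Cox7a2 made up 66.4% ± 23.9, Cox7a2l, which encodes a factor of supercomplexes, 29.2% ± 25.5, and Cox7a1 4.43% ± 10.9. In the C1qb-high cells Cox7a2l made up 73.25% at the median (0.268% to 83.5%), against 27.9% in the Ibsp-high, 17.8% in the Otos-high and 31.6% in the remaining cells.

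The rare isoforms appeared in scattered cells of several classes. Ndufa4l2, a paralog known as a target of hypoxia-inducible factor and abundant in pericytes, reached 10 CPM in 4 cells. These were the Ibsp-high cells 2 and 7 with 53.5 and 81.1 CPM, the Otos-high cell 26 with 36.4 CPM and cell 42 of the remaining class with 39.7 CPM. Cox4i2, the lung isoform of subunit 4, did so in cells 17 and 31 with 89.9 and 39.5 CPM. Cox7a1, the heart and muscle form, did so in the Otos-high cells 23, 28 and 32 with 27.8, 10.9 and 12.2 CPM and in cell 35 with 49.3 CPM. Cox6b2, a testis form, did so in cells 23, 34, 35 and 41 with 19.7, 15.1, 39.05 and 26.4 CPM, and Cox8b in cell 24 with 27.99 CPM. Cells 23 and 35 held both Cox7a1 and Cox6b2. In each of these cells the 5 skeletal muscle markers summed to less than 1 CPM, the 4 endothelial markers to at most 2.94 CPM, and at most 1 of 6 pericyte and smooth muscle markers reached 10 CPM. In cell 7, with the highest Ndufa4l2, the pericyte and smooth muscle markers summed to 4.41 CPM, and in cell 2 to 224 CPM.

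Ndufs3 was listed at 0 in all 46 cells. It encodes a core subunit of complex I that the enzyme cannot do without, and the core genes Ndufs7 and Ndufs8 reached 1 CPM in 41 and 42 cells. Its coding sequence has a near-identical copy, Gm12251, and its exons overlap those of Kbtbd4 on the other strand. Their part in the value of 0 was not tested. In all, 20 members have a near-identical copy elsewhere in the genome and 25 overlap an antisense exon. Reads of copies were compared for Uqcr10, Cox7c and Ndufs5 only. For 2 of these members a copy took as many reads or more. Gm12338 had a mean of 58.8 CPM beside 57.6 CPM for Cox7c, and BC002163 44.4 CPM beside 14.4 CPM for Ndufs5. The values of such genes are uncertain, as is the difference of Ndufs5 above.

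Members varied together within a class only weakly, gene by gene. Among the 52 members that averaged 50 CPM or more, the median Spearman rho of gene pairs was 0.14 over the 21 remaining cells and 0.17 over the 12 Ibsp-high cells, against 0.01 for pairs of all 4047 genes at that level in both classes. Pairs of genes in 1 complex had 0.15 and 0.19, pairs from different complexes 0.13 and 0.17. As a sum they followed the ribosomal protein genes. Pearson's r of the 2 shares was 0.75 (Spearman's rho 0.70) over the 21 remaining cells and 0.83 (0.89) over the 12 Ibsp-high cells, and 0.59 and 0.69 without the 2 cells farthest out. The mitochondrially encoded genes, of which 7 of 13 were measured, took 1.08% of reads at the median. Their share followed that of the nuclear genes in the Ibsp-high cells (r = 0.83, rho 0.73, and r = 0.66 without 2 cells) but not in the remaining cells (r = -0.068, rho -0.090). The shares within a cell have the same denominator, and these coefficients only describe the cells at hand.

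Fixed lists of neighbouring pathways were read by the same rule. Against the remaining cells in CPM, 17.7% of all genes were higher and 13.4% lower in the Ibsp-high cells. For the Otos-high cells these shares were 15.3% and 14.8%. For the C1qb-high cells they were 23.4% and 27%, and 30.4% and 21.99% with the 1086-gene size factors. Several of the counts below lie near these shares. Of the 6 mitochondrially encoded genes that passed the filter, 0 were called in any comparison in CPM, and 2 were higher in the C1qb-high cells with the 1086-gene size factors. The median differences were 0.18, 0.24 and -0.13 for the Ibsp-high, Otos-high and C1qb-high cells against the remaining cells, the last turning to 0.83 with those factors. Of 10 electron carrier genes that passed the filter, 2 were higher and 1 lower in the Ibsp-high cells. In the Otos-high cells 1 was higher and 3 lower, and in the C1qb-high cells 4 and 2. The list medians were 0.30, -0.30 and 0.05. Among them, cytochrome c (Cycs) carries electrons from complex III to complex IV. Cycs was higher in all 3 classes than in the remaining cells, by 1.48, 1.23 and 1.37 in CPM. Under each scaling it was higher by at least 1.04. Of 6 adenine nucleotide, phosphate and outer-membrane carriers, 1 was higher in the Ibsp-high and in the Otos-high cells, the channel gene Vdac2 (1.502 and 1.59). In the C1qb-high cells 4 of 6 were lower and 0 higher in CPM, and 2 lower and 2 higher with the 1086-gene size factors. Among them, Slc25a4, the ADP/ATP carrier of muscle and other non-dividing tissues, had a median of 127 CPM against 901 CPM (-2.79, and -2.58 to -1.83 over the sets of size factors). Of 13 measured regulators of mitochondrial genes, 3 were higher and 1 lower in the Ibsp-high cells (median difference -0.34), and 1 was higher and 2 lower in the Otos-high cells (-0.24). Lower in both was Polrmt (-2.04 and -1.57), the mitochondrial RNA polymerase, and lower in the Otos-high cells was Tfam (-1.13), which packs and transcribes mitochondrial DNA. Nrf1 was higher in both, with medians of 55.9 and 90.4 CPM against 0.174 CPM in the remaining cells (2.88 and 2.82). Its median was 0.108 CPM in the C1qb-high cells, where it was not called under any scaling (differences of 0.53 to 0.85). Complex I assembly factors were 2 higher and 3 lower of 14 in the Ibsp-high and 4 higher and 1 lower in the Otos-high cells. Of 17 genes of the citrate cycle and pyruvate dehydrogenase, 1 was higher and 1 lower in the Ibsp-high cells, and 3 were higher and 5 lower in the Otos-high cells.

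Glycolysis genes differed more between the Ibsp-high and Otos-high cells than the oxidative phosphorylation genes did, though the cells overlapped. Of 16 glycolysis genes, 9 were lower and 0 higher in the Ibsp-high than in the Otos-high cells, with a median difference of -1.30 that lay between -1.17 and -1.30 over the 4 scalings, and the count of 9 was the same under each. Of all genes, 16.9% were lower and 21.7% higher in this comparison in CPM. Median CPM in the Ibsp-high and Otos-high cells was 36.1 and 866 for Ldhb, which encodes a lactate dehydrogenase subunit (-4.30), 0 and 94.0 for the aldolase gene Aldoc (-3.57), 7.11 and 169 for the phosphofructokinase gene Pfkl (-3.50) and 217 and 525.6 for the pyruvate kinase gene Pkm (-2.28). Against the remaining cells, 7 of 16 were higher and 0 lower in the Otos-high cells (4 and 0 with the 30 CPM gene set), and 0 higher and 4 lower in the Ibsp-high cells. The background in CPM was 15.3% of all genes higher in the Otos-high cells and 13.4% lower in the Ibsp-high cells. The glycolysis genes took 0.290 times as many reads as the oxidative phosphorylation genes in the Ibsp-high cells (median; 0.175 to 0.451), 0.490 times in the Otos-high cells (0.405 to 0.797), 0.324 times in the C1qb-high cells (0.264 to 0.822) and 0.393 times in the remaining cells (0.186 to 0.651). This ratio does not depend on the scaling. The Ibsp-high and Otos-high ranges overlap between 0.405 and 0.451. The Otos-high cells 24, 31, 29 and 23 (0.405, 0.443, 0.445 and 0.450) and the Ibsp-high cells 2 and 4 (0.409 and 0.451) lie there. As a share of all reads the glycolysis genes took 0.120% to 0.322% in the Ibsp-high and 0.232% to 0.609% in the Otos-high cells, which also overlap.

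**Figure D5:**
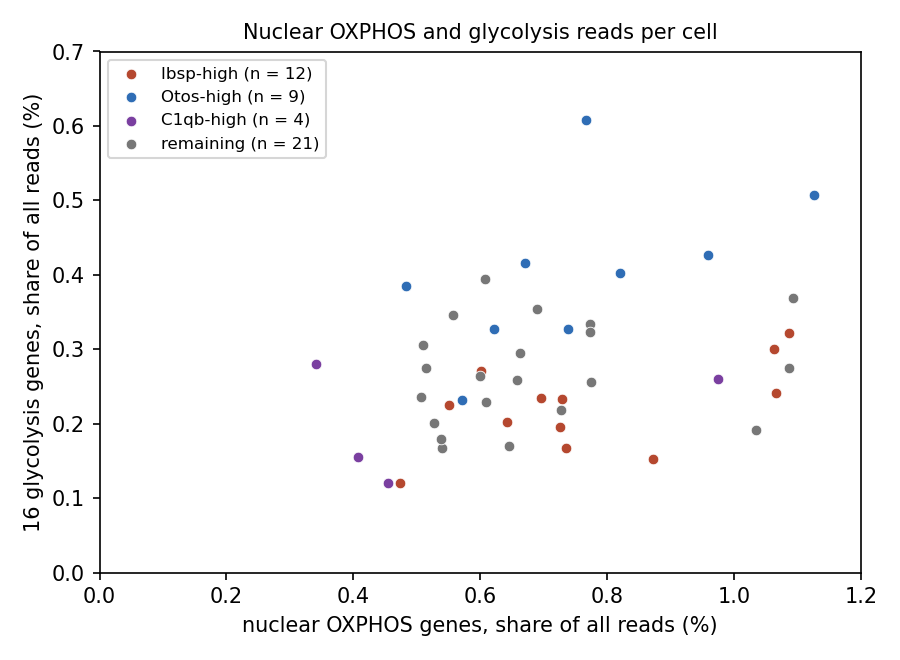
Share of all reads in 16 glycolysis genes (y axis, percent) against the share in the 86 nuclear oxidative phosphorylation genes (x axis, percent), 1 point per cell, coloured by class. Otos-high cells have a median glycolysis share of 0.402% and Ibsp-high cells of 0.229%, over nearly the same span of the x axis.

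Genes of the hypoxia response went with glycolysis in the Otos-high cells. Beside a background of 15.3% higher and 14.8% lower, 5 of the 15 were higher and 0 lower than in the remaining cells. They include Hif1a, the hypoxia-inducible factor (709 against 167 CPM at the median, 3.81), the glucose transporter gene Slc2a1 (161 against 0.595 CPM, 2.48), Pdk1, whose kinase holds back pyruvate dehydrogenase (1.73), and Bnip3 (1.90), a mitophagy receptor. In the Ibsp-high cells 3 were higher and 5 lower (background 17.7% and 13.4%), with a list median of -0.011. Slc2a1 (-3.09), Pdk1 (-3.48) and Bnip3 (-2.17) were among the lower genes, and the higher genes were Vegfa (1.78), Arnt (1.59) and Egln3 (1.11). The share of the oxidative phosphorylation genes was nevertheless 0.739% and 0.727% in these 2 classes.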

How the data were processed

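Gene expression was measured in 46 hand-picked cells, each 1 library made with a full-length cDNA kit, per the labels' protocols. bcl2fastq 2 and STAR 2.7.3a were used on the builds GRCm38 and mm10, per the submitters' processing notes. Which counter, annotation and strand setting were used is not given in the sources used here. Deposited values are CPM for 29871 genes, per the file headers. Dividing by the value of 1 read in each cell gave whole reads, within 0.01, for 100% of the values above 0. Depth was 2522853 to 10350249 reads in listed genes, and reads that lack molecular identifiers are not independent molecules.

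Computed here, with Python 3.11.15, pandas 2.3.3 and scipy 1.17.1, were shares of the authors' total, class medians and differences of mean log2(CPM + 1), for genes with a mean of at least 1 CPM (14131 genes). A difference of at least 1 was called. No count test could be run, because the 46 cells are 1 sample. Transcript length was that of the shortest GENCODE M21 transcript with the longest coding sequence. Near-identical copies (at least 95% identity over at least 80% of the coding sequence) were found with blastn 2.17.0. GRCm38 gene positions are those of GENCODE M21.

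The members and lists were chosen with earlier results of these data known. Named are all isoform family members, per complex the 3 highest genes and the catalytic subunits, up to 8 members per direction and comparison, and up to 4 genes of each other list. Vegfa, Arnt, Egln3, Ndufs3, Atp5s, Uqcrh-ps1, Atp5c1-ps and the copies of members were named after their values or symbols were seen. Alternatives were pseudocounts of 0.1 and 10, other filters, other scalings, medians, mean CPM, halved and doubled class limits, and leaving out each cell.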

Additional observations from a re-analysis of the deposited data

Results flagged for a closer look

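The complex I share of the member reads had a value far from the others in the Otos-high cells. Cell 31 lay at 38.7%, while the other 8 cells lay between 25.6% and 32.2%. Chance gives such a gap in about 1 of 20 groups, and 12 sets of values were looked at in this way (the total and the shares of 5 complexes in the Otos-high and C1qb-high cells).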

How the results depend on the processing

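The log2 ratio of the summed share between the C1qb-high and the remaining cells was -0.58 in CPM and moved to 0.44 with size factors over 1086 genes and to -0.069 over genes at 10 CPM or more in every cell. Per length, complex II took 4.38% and complex IV 20.9% of member reads, and without the highest gene of each complex, complex I took 35.5%. Members called in the Ibsp-high cells (16) were 25 with a pseudocount of 0.1, 2 with 10, 7 from mean CPM and 4 from medians. In the Otos-high cells (15) they were 4 with a pseudocount of 10, 4 from mean CPM and 6 from medians, and in the C1qb-high cells (27) 11 with a pseudocount of 10. Between Ibsp-high and Otos-high cells (5) they were 15 and 2 with pseudocounts of 0.1 and 10, 3 at a mean of at least 50 CPM, 9 from mean CPM, and 8 with doubled class limits and with size factors over genes at 30 CPM or more. At 10 CPM or more a cell held a median of 68, 68, 56 and 63 members in the Ibsp-high, Otos-high, C1qb-high and remaining cells. Turned round from mean CPM were Uqcrc2 in the Ibsp-high cells (-0.025) and Ndufv1 (-0.039) and Ndufa9 (-0.12) in the Otos-high cells. Leaving out each cell gave ratios of the share of -0.67 to -0.51 for C1qb-high, 0.16 to 0.21 for Ibsp-high and 0.13 to 0.24 for Otos-high against remaining cells, and -0.05 to 0.04 for Ibsp-high against Otos-high cells. The counts then ran from 24 to 38, 13 to 21, 11 to 18 and 4 to 11. In the C1qb-high cells leaving out each cell moved Ndufv2 from -1.81 to 0.15 (without cell 43) and Ndufs8 from -1.83 to 0.21 (without cell 45). Of 735 values of the 63 called differences under other settings, 554 kept direction and size, 178 fell under the size and 3 turned round. The cause was not tested, except that a pseudocount of 10 shrinks low values by construction. No paired analysis was possible because the cells form 1 group.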
